A study of Mus musculus with 4 samples.

Results

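The 48 genes described here encode the machinery that licenses and fires replication origins and copies DNA, the enzymes that supply deoxynucleotides, the cyclins and E2F factors of the G1/S transition, and a few proteins that rebuild chromatin behind the fork. They were taken by name from a list of replication and nucleotide synthesis genes, not by their expression. Earlier results of these data were known when the list was chosen. All 48 were found among the 51826 genes of the table. RNA sequencing was done on C2C12 cells, an immortalised mouse myoblast line that the labels also call muscle stem cells. The GDF10 group was given recombinant GDF10, a protein related to the bone morphogenetic proteins, for 6 h in vitro, and the vehicle group was given vehicle for the same 6 h, all in growth medium. Each group held 2 libraries, described as biological replicates, and no source used here gives the dose of GDF10 or the kind of vehicle. One protocol label speaks of longissimus dorsi muscle where all other labels speak of the cell line.

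Total counts were 29944193 and 35057429 in GDF10 replicates 1 and 2, against 35597310 and 29641165 in vehicle replicates 1 and 2. The myoblast markers Myod1, Myf5, Des, Itga7, Cdh15, Msc and Cdon had counts in every library and summed to 2040 and 2029 CPM (counts per 1000000 counts of the scaled library) with GDF10, against 1994 and 1984 CPM with vehicle. Msc was low, with 3 to 27 counts per library. Markers listed for fibroblasts were uneven. They summed to 4257 and 4637 CPM with GDF10, against 4217 and 4422 CPM with vehicle, mostly from Col1a1 and Col1a2. Thy1 and Lum of that list had 0 to 2 counts per library, while Pdgfra had 1760 to 2195 and Dcn 922 to 1194. Fat markers summed to 2.73 and 3.01 CPM with GDF10, against 2.46 and 3.65 CPM with vehicle, and immune and blood markers to 8.8 and 7.28 CPM with GDF10, against 7.64 and 7.19 CPM with vehicle. Fabp4 and Plin1 of the fat list and Cd68 and Hba-a1 of the blood list had counts in every library. Bone markers and endothelial and epithelial markers each summed to under 1 CPM in every library, though Sp7 and Pecam1 had counts in every library. Adipoq, Lep, Ibsp, Hbb-bs, Cd3e and Epcam of these lists stood at 0 in every library, where 3 counts would be 0.086 to 0.1 CPM with GDF10 and 0.0839 to 0.101 CPM with vehicle. Mature muscle markers summed to 242.4 and 249 CPM with GDF10, against 201 and 222 CPM with vehicle, mostly from Acta1 and Actn3. Of the 9, 7 were detected in each GDF10 library, against 9 and 8 in vehicle replicates 1 and 2. Whether the cells behind any of these markers play a part in the values below was not tested. All 48 replication genes passed the filter on low counts, with 383 to 13726 counts per library.

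Before S phase, the origin recognition complex, CDC6 and CDT1 load the MCM ring onto DNA, and CDC45 and the GINS subunits turn it into the active helicase. Polymerase alpha with its primase starts each strand, the clamp loader places PCNA, and polymerases delta and epsilon extend the strands, while FEN1 and LIG1 join the lagging-strand fragments. Cyclin E and the E2F factors switch much of this set on in late G1, and in myoblasts its shutdown accompanies exit from the cell cycle before fusion.

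Promoter sequences are shown as a description, because E2F sites are a known shared feature of such genes. RefSeq windows on GRCm38.p6, the assembly that mm10 denotes, run from 250 bases before to 50 bases after an annotated start, 300 bases in all, and were at hand for 40 of the 48 genes; Mcm4, Gins1, Gins2, Gins4, Rfc2, Prim2, Pole and Ccne2 had none in that table. The letters TTTCCCGC, TTTCGCGC, TTTGCCGC or TTTGGCGC, the core of an E2F site, were found on either strand in 15 of these 40 genes, or 37.5%. They were found in 475 of 10492 tested genes with a window, or 4.53%, and in 704 of all 27025 genes with one, or 2.61%. A CCAAT box, the letters CCAAT on either strand, was present in 25 of the 40, or 62.5%, against 43.2% of the tested genes and 41.1% of all genes with a window. The letters TTTGAA on either strand, those of the CHR element known from mitotic genes, were present in 6 of the 40, or 15%, against 14.3% of the tested genes and 20.2% of all genes with a window. Of the other replication genes described further on, 53 had a window, with an E2F match in 18, or 34.0%. The 31 G2/M genes with a window differed in the E2F and TTTGAA letters, with TTTGAA in 21, or 67.7%, and an E2F match in 1, or 3.23%. Their CCAAT boxes, in 21, or 67.7%, were about as frequent as in the 40. A letter match is a description of the window and not a site shown to be bound. Mcm5 and Mcm6 are shown as genes with several matches, Cdc6 and Pola1 as genes with 1, and Pcna as one with no E2F match in its window. All are written 5′ to 3′ on the gene's strand, and capitals mark the E2F letters and the CCAAT boxes; the first 2 E2F matches of Mcm5 and of Mcm6 overlap each other, on opposite strands.
Mcm5 (chr8:75109259-75109558, plus strand): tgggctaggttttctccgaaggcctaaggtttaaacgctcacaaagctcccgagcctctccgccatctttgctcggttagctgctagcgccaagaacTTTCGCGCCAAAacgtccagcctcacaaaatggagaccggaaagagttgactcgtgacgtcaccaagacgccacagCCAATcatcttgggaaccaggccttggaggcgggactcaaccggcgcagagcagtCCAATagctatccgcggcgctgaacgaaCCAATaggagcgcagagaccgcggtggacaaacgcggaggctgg
Mcm6 (chr1:128359656-128359955, minus strand): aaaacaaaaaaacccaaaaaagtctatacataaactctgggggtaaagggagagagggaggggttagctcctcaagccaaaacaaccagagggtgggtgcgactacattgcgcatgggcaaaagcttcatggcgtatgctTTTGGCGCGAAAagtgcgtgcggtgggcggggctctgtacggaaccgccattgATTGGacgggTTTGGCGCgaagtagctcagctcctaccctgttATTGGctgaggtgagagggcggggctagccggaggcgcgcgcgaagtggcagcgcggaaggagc
Cdc6 (chr11:98907901-98908200, plus strand): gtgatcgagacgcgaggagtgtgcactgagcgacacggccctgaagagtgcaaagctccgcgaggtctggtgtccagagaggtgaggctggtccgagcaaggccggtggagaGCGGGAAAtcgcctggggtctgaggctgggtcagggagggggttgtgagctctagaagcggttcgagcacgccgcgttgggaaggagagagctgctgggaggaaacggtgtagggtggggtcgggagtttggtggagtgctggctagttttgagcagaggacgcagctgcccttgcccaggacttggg
Pola1 (chrX:93632106-93632405, minus strand): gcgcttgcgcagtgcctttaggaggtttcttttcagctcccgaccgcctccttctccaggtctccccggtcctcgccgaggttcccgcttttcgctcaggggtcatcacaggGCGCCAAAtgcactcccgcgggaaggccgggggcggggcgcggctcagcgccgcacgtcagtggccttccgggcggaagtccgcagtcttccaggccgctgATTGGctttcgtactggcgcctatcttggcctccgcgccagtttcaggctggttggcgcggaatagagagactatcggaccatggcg
Pcna (chr2:132253131-132253430, minus strand): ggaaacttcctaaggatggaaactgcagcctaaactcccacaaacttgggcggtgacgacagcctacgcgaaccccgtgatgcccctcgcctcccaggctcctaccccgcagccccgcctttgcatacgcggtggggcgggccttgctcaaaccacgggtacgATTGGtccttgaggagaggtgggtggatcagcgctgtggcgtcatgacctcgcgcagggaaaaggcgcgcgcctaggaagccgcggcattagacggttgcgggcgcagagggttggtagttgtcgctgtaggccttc
Positions of starts are RefSeq's. Those of Cdc6 and Pcna lie inside the genes as GENCODE places them, which begin at base 98907801 for Cdc6 and, on the minus strand, at base 132253314 for Pcna, so that the whole Cdc6 window and part of the Pcna window before the start are within the gene in that annotation.

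The levels of the 48 transcripts per length, as CPM per kb of annotated exon averaged over the 4 libraries, showed which parts of the machinery the growing myoblasts held in most RNA. Rrm2, the regulated subunit of ribonucleotide reductase, stood highest at 128 CPM per kb, followed by Pcna, the sliding clamp, at 82.3 and the helicase subunit genes Mcm6 and Mcm3 at 67.1 and 61.9. Uhrf1, which recognises hemimethylated DNA behind the fork, stood at 57.99 and Mcm5 at 55.03 CPM per kb. Within the MCM ring, whose subunits are used in equal number, levels per kb spanned only 34.9 for Mcm2 to 67.1 for Mcm6. The clamp loader genes were narrower still, at 10.5 for Rfc2 to 15.5 for Rfc4, all far below the clamp that they load. Lowest were Orc1, a regulated origin recognition subunit, at 3.87 and Mcm10, which helps to activate the helicase, at 4.27 CPM per kb. The catalytic polymerase genes Pole and Pola1 followed at 5.59 and 5.67. Exon lengths were taken over all annotated transcripts of a gene, and long unused exons lower such a value.

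**Figure D1:**
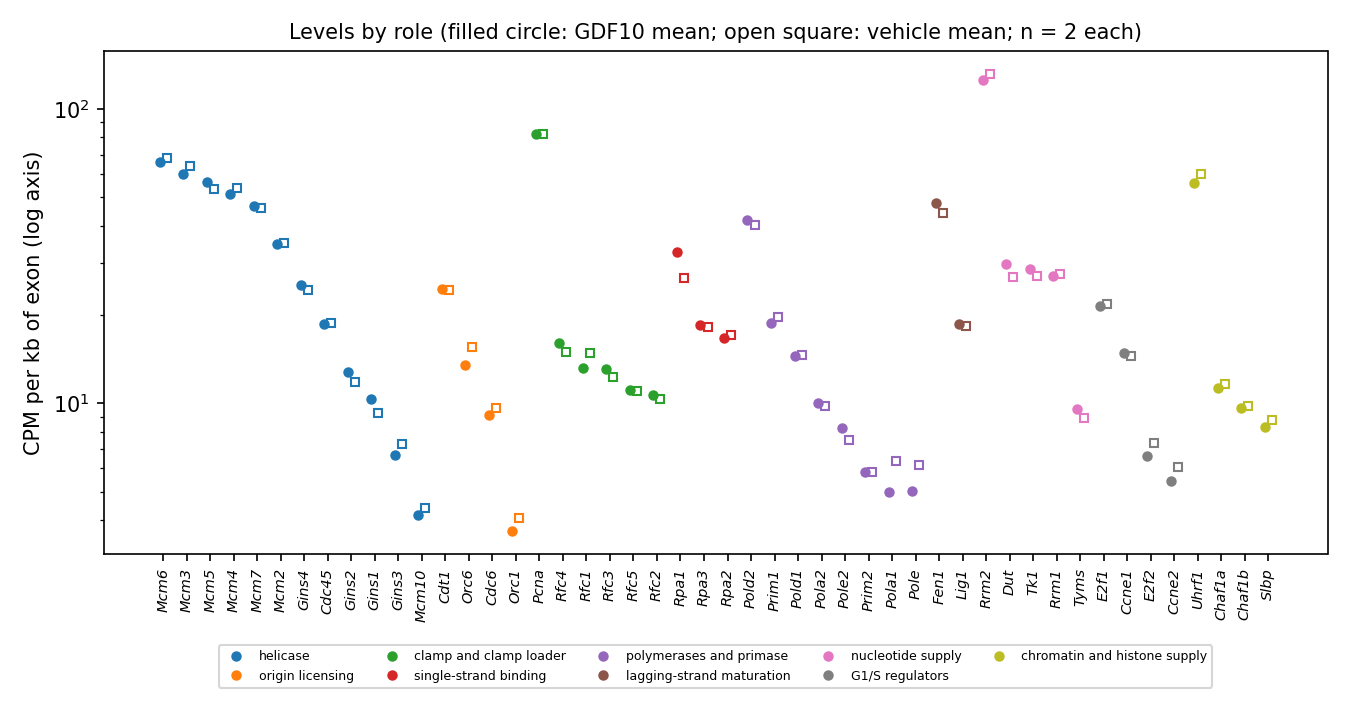
Mean CPM per kb of exon (log axis) in the GDF10 group (filled circles) and the vehicle group (open squares), n = 2 libraries each, for the 48 genes ordered within their roles. Rrm2 and Pcna are the highest, at 128 and 82.3 CPM per kb over all libraries, and the means of both groups lie close together in every role.

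The comparison of GDF10 with vehicle asked whether 6 h of the ligand moved this set. No replication gene passed the test. In edgeR's quasi-likelihood test with Benjamini-Hochberg adjustment over all 15467 genes tested, 25 genes, or 0.162%, had an adjusted p below 0.05, 12 lower (0.0776%) and 13 higher (0.084%), and 0 of the 48 were among them; DESeq2 and limma-voom also called 0 of the 48. At an unadjusted p below 0.05 stood 1 of the 48, Pola1, which was lower, against 3.49% of all genes lower and 2.44% higher. Log2 fold changes were negative in 26 and positive in 22 of the 48, with a median of −0.011, beside a median of 0.0029 over all genes tested. Their size was under 0.2 on the log2 scale in 44 of the 48. In bulk RNA, fewer cells in S phase and less of these RNAs per cell cannot be told apart.

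The precision was enough to bound most of these values. The 95% intervals of 47 of the 48 log2 fold changes included 0, and 46 of them lay inside a 1.5-fold change in both directions. The exceptions were Pola1 and Rpa1, and the farthest bound of any interval was a 1.73-fold increase for Rpa1. Both GDF10 libraries lay below both vehicle libraries in 6 genes, Orc6, Rfc1, Pola1, Pole, Ccne2 and Uhrf1, or 12.5%, against 19.4% of all genes tested. Both lay above in 2, Gins2 and Pold2, or 4.17%, against 18.8% of all genes. With each of the 4 libraries left out in turn, 46 of the 48 log2 fold changes turned sign or moved by over 1.5 times in at least 1 fit, many of them near 0 to begin with, and those of Rfc1 and Pola1 did not.

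**Figure D2:**
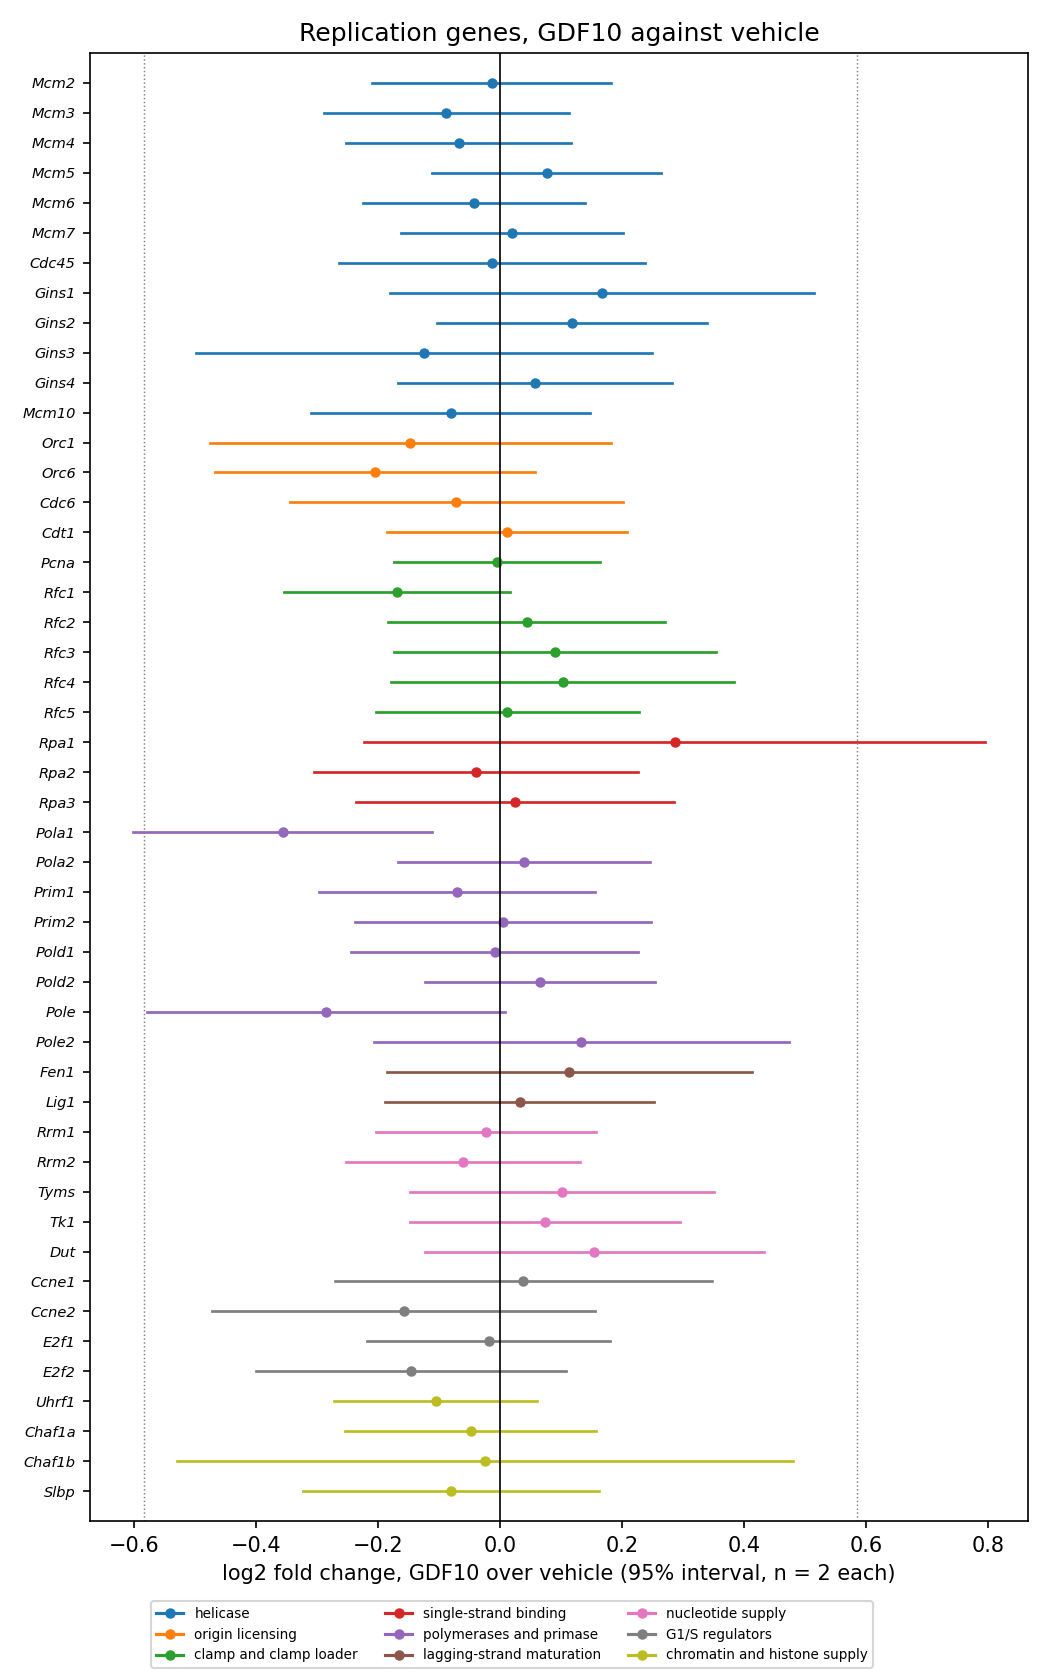
Log2 fold change of GDF10 over vehicle with its 95% interval for each of the 48 genes (n = 2 libraries each), coloured by role; dotted lines mark a 1.5-fold change in each direction. All intervals but those of Pola1 and Rpa1 lie between the dotted lines, and all but that of Pola1 include 0.

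None of the 12 helicase genes passed the test. Mcm2 had 239 and 244 CPM in the GDF10 libraries, against 259.6 and 228 CPM in the vehicle libraries. Mcm5 had 224 and 227 CPM with GDF10, against 226 and 202 CPM with vehicle. Mcm6, at 306 and 311 CPM with GDF10, against 335 and 301 CPM with vehicle, was the most abundant of them per length. Both GDF10 libraries lay between the vehicle libraries in Mcm2 and Mcm6, and in Mcm5 vehicle replicate 2 alone was low. The log2 fold changes of Mcm2, Mcm3, Mcm4, Mcm5, Mcm6 and Mcm7 were −0.014, −0.088, −0.068, 0.076, −0.043 and 0.019, and the 95% interval reached farthest for Mcm3, at −0.29 to 0.11. Mcm3, at 218 and 232 CPM with GDF10, against 254 and 224 CPM with vehicle, and Mcm4, at 187 and 183 CPM with GDF10, against 204 and 184 CPM with vehicle, were also highest in vehicle replicate 1. Cdc45, which completes the active helicase, had 69.4 and 60.6 CPM with GDF10, against 69.8 and 61.4 CPM with vehicle and a log2 fold change of −0.014 (95% interval −0.26 to 0.24). For the GINS subunit genes, the log2 fold changes were 0.17 for Gins1, 0.12 for Gins2, −0.12 for Gins3 and 0.056 for Gins4. Mcm10 had 32.5 and 31.4 CPM with GDF10, against 35.3 and 32.3 CPM with vehicle, a log2 fold change of −0.081. Of these 12 genes 7 had negative and 5 positive values, with adjusted p-values of at least 0.852 in edgeR's test. Mcm7, Gins2 and Cdc45 share exon bases on the opposite strand with other genes. These are Ap4m1 and Cops6 for Mcm7, Gse1 for Gins2 and Ufd1 for Cdc45. No source used here says whether the counting used strand. Summed with Gse1, Gins2 had a log2 fold change of 0.013.

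Among origin licensing genes, Orc6, a subunit of the origin recognition complex (ENSMUSG00000031697; mm10 chromosome 8, 85299632 to 85308278), had 36.3 and 30.3 CPM in the GDF10 libraries, against 38.6 and 38.2 CPM in the vehicle libraries. Both GDF10 libraries were lower, replicate 2 the more so, and the vehicle libraries nearly coincided. The log2 fold change of −0.21 (standard error 0.11) had an adjusted p of 0.833 by edgeR, and it was −0.34 without GDF10 replicate 1 and −0.081 without GDF10 replicate 2. Orc6 shares 171 exon bases with Vps35 on the opposite strand, and the 2 genes' summed counts gave a log2 fold change of −0.084. Orc1 had 12.9 and 12.6 CPM with GDF10, against 15.4 and 12.9 CPM with vehicle. Cdc6, the loader of the MCM ring, had 49.3 and 46.2 CPM with GDF10, against 55.2 and 45.1 CPM with vehicle, and Cdt1, its partner, had 75.9 and 76.9 CPM with GDF10, against 79.1 and 72.7 CPM with vehicle. Vehicle replicate 1 was the highest library for all 4 genes. Orc1, Cdc6 and Cdt1 had log2 fold changes of −0.15, −0.072 and 0.011.

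The clamp gene Pcna had one of the smallest differences of the set. It had 199.7 and 195 CPM in the GDF10 libraries, against 204 and 192 CPM in the vehicle libraries, and its log2 fold change of −0.0050 had a 95% interval of −0.17 to 0.16. Rfc1, the large subunit of the clamp loader (ENSMUSG00000029191; mm10 chromosome 5, 65261850 to 65335670), was lower in both GDF10 libraries, at 76.7 and 81.6 CPM with GDF10, against 88.5 and 89.5 CPM with vehicle. Its log2 fold change was −0.17 (standard error 0.079; unadjusted p = 0.0678, adjusted p = 0.825, edgeR). The 4 small subunit genes lay the other side of 0, at 0.043 for Rfc2, 0.090 for Rfc3, 0.10 for Rfc4 and 0.012 for Rfc5, each with an interval that included 0. Rfc4 shares exon bases with Eif4a2 on the opposite strand, which had far more counts, and their sum had a log2 fold change of −0.17.

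Of the single-strand binding genes, Rpa1, the DNA-binding large subunit of replication protein A (ENSMUSG00000000751; mm10 chromosome 11, 75298166 to 75348324), had 149.98 and 213 CPM in the GDF10 libraries, against 155 and 143 CPM in the vehicle libraries. GDF10 replicate 2 stood far above the other 3 libraries, which lay close together, so the groups overlapped. The mean was 182 ± 44.7 CPM with GDF10 and 149 ± 7.88 CPM with vehicle (mean ± SD, n = 2 each), which gave a log2 fold change of 0.29 (standard error 0.19, adjusted p = 0.845 by edgeR). Without GDF10 replicate 1, which leaves replicate 2 as the only treated library, Rpa1 was the only gene of the set to pass, at a log2 fold change of 0.52 and an adjusted p of 0.0276; without GDF10 replicate 2 the log2 fold change was 0.011. Rpa2 and Rpa3, the partners of the same trimer, did not share the high value of that library. Rpa2 had 49.8 and 49.8 CPM with GDF10, against 56.3 and 45.98 CPM with vehicle, and Rpa3 had 20.5 and 21.3 CPM with GDF10, against 21.5 and 19.6 CPM with vehicle. Their log2 fold changes were −0.039 and 0.024.

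The polymerase genes held the 2 most negative values of the set. Pola1, the catalytic subunit of polymerase alpha (ENSMUSG00000006678; mm10 chromosome X, 93304767 to 93632155), had 40.2 and 47.4 CPM in the GDF10 libraries, against 56.3 and 55.9 CPM in the vehicle libraries. The vehicle libraries nearly coincided, and both GDF10 libraries were lower, replicate 1 the more so. Its mean was 43.8 ± 5.10 CPM with GDF10 and 56.1 ± 0.307 CPM with vehicle (mean ± SD, n = 2 each), which gave a log2 fold change of −0.36 (standard error 0.10, 95% interval −0.60 to −0.11). In edgeR's test the unadjusted p was 0.0106 and the adjusted p 0.780, and over the alternatives the adjusted p ran from 0.0638, without GDF10 replicate 2, to 0.99995, without vehicle replicate 2. Pole, the catalytic subunit of polymerase epsilon on the leading strand (ENSMUSG00000007080; mm10 chromosome 5, 110286306 to 110337474), had 50.2 and 62.4 CPM in the GDF10 libraries, against 72.5 and 64.7 CPM in the vehicle libraries. GDF10 replicate 1 was lowest, while GDF10 replicate 2 lay just under vehicle replicate 2. Its log2 fold change was −0.29 (standard error 0.12; unadjusted p = 0.0552, adjusted p = 0.825, edgeR), −0.14 without GDF10 replicate 1 and −0.45 without GDF10 replicate 2. The catalytic subunit of polymerase delta lay near 0: Pold1 had 66.1 and 74.4 CPM with GDF10, against 74.5 and 66.7 CPM with vehicle, a log2 fold change of −0.0090. Accessory subunits lay slightly above 0, at 0.040 for Pola2, 0.065 for Pold2 and 0.13 for Pole2. With 1 library left out, Pola2 and Pole2 turned sign in at least 1 fit and Pold2 did not. Pole2 shares 245 exon bases on the same strand with Gm49384, a gene model with 0 counts in every library. Counts summed over Pole2 and the genes linked to it by shared exon bases gave a log2 fold change of 0.022. Prim1, the catalytic primase subunit, had 77.4 and 67.3 CPM with GDF10, against 78.04 and 73.9 CPM with vehicle, and the log2 fold changes of Prim1 and Prim2 were −0.071 and 0.0044.

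**Figure D3:**
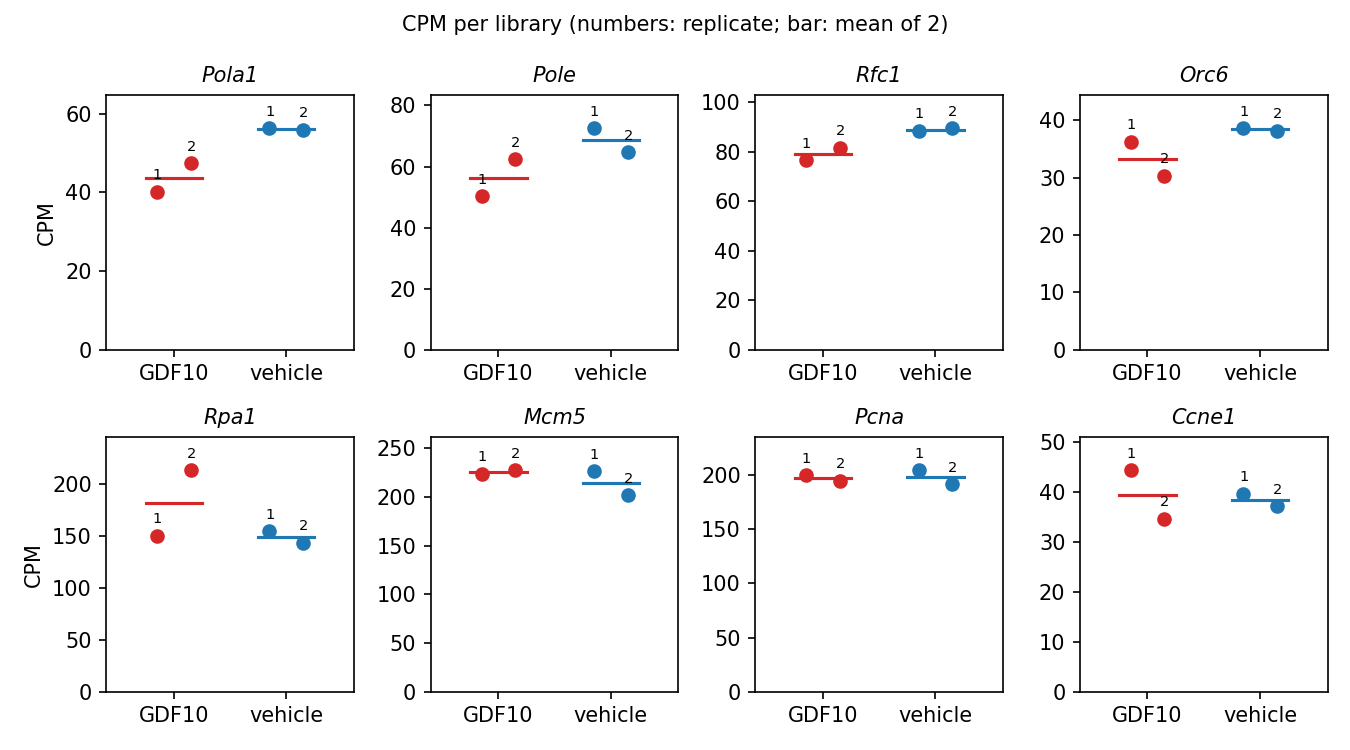
CPM in each library for 8 of the genes, GDF10 left of vehicle, with the replicate number beside each point and a bar at the mean of 2; every axis starts at 0. Pola1, Pole, Rfc1 and Orc6 are lower in both GDF10 libraries, Rpa1 is high in GDF10 replicate 2 alone, and Mcm5, Pcna and Ccne1 overlap between the groups.

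For lagging-strand maturation, Fen1, the flap endonuclease, had 119 and 113 CPM in the GDF10 libraries, against 121 and 94.03 CPM in the vehicle libraries. Vehicle replicate 2 alone was low. Gm10143, a gene model on the opposite strand that shares 1909 exon bases with Fen1, had 41 and 65 counts with GDF10, against 68 and 303 counts in vehicle replicates 1 and 2. Tmem258 also shares exon bases with Fen1 on the opposite strand. Counts summed over Fen1 and the genes linked to it by shared exon bases gave a log2 fold change of 0.11. The part of Gm10143 in the Fen1 counts was not tested otherwise. Lig1, the ligase that seals the fragments, had 80.96 and 78.1 CPM with GDF10, against 83.1 and 72.4 CPM with vehicle. The log2 fold changes were 0.11 for Fen1 and 0.032 for Lig1, and both intervals included 0.

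Nucleotide supply included the most abundant transcript of the set. Rrm2 had 359 and 338 CPM in the GDF10 libraries, against 384 and 343 CPM in the vehicle libraries. Rrm1, the partner subunit of ribonucleotide reductase, had 298 and 299 CPM with GDF10, against 319 and 288 CPM with vehicle. Their log2 fold changes were −0.061 (95% interval −0.25 to 0.13) and −0.024 (95% interval −0.20 to 0.16). Enzymes of the thymidylate route lay slightly above 0. Tyms, thymidylate synthase, had 59.99 and 56.7 CPM with GDF10, against 58.9 and 49.8 CPM with vehicle; Tk1, the salvage kinase, had 156 and 141 CPM with GDF10, against 151 and 131 CPM with vehicle; and Dut, which removes dUTP, had 76.8 and 66.8 CPM with GDF10, against 70.3 and 58.7 CPM with vehicle. Vehicle replicate 2 was the lowest library for all of these 3, and their log2 fold changes were 0.10, 0.073 and 0.15, none past the test. That of Dut was 0.049 without GDF10 replicate 1 and 0.25 without GDF10 replicate 2, and 0.29 without vehicle replicate 1 and 0.030 without vehicle replicate 2.

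None of the 4 genes that control the G1/S transition passed the test. Ccne1, a cyclin E gene, had 44.4 and 34.7 CPM in the GDF10 libraries, against 39.7 and 37.2 CPM in the vehicle libraries. Ccne2, the other, had 21.04 and 16.97 CPM with GDF10, against 21.2 and 21.2 CPM with vehicle, with GDF10 replicate 1 just below both vehicle libraries and replicate 2 well below. E2f1, an activating E2F, had 66.2 and 68.6 CPM with GDF10, against 70.5 and 66.1 CPM with vehicle, and E2f2, another, had 33.5 and 31.1 CPM with GDF10, against 38.3 and 33.2 CPM with vehicle. Log2 fold changes were 0.038 for Ccne1, −0.16 for Ccne2, −0.019 for E2f1 and −0.15 for E2f2. The interval was narrowest for E2f1, at −0.22 to 0.18. Ccne2 shares exon bases with Ints8 on the opposite strand, and their sum had a log2 fold change of −0.16. Ccne2 alone had −0.32 without GDF10 replicate 1, −0.010 without GDF10 replicate 2 and −0.012 with the trend on GC content removed.

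The 4 chromatin genes were slightly negative in the fit reported. Uhrf1 had 234 and 242 CPM in the GDF10 libraries, against 263 and 249 CPM in the vehicle libraries, both GDF10 libraries being lower, at a log2 fold change of −0.11 (adjusted p = 0.845, edgeR). Chaf1a, the large subunit of the histone chaperone CAF-1, had 99.2 and 99.7 CPM with GDF10, against 109.5 and 96.1 CPM with vehicle. Chaf1b, its partner, had 47.6 and 42.5 CPM with GDF10, against 54.3 and 37.3 CPM with vehicle; the vehicle libraries lay farther apart than the GDF10 libraries, on both sides of them. Slbp, which binds the stem-loop of histone mRNAs, had 52.2 and 48.9 CPM with GDF10, against 57.4 and 49.4 CPM with vehicle. Log2 fold changes of Chaf1a, Chaf1b and Slbp were −0.048, −0.025 and −0.080, each with an interval that included 0.

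The set varied together between the 2 vehicle libraries by more than it differed between the groups. The summed level of the 48 genes was 4678 and 4671 CPM in the GDF10 libraries, against 4971 and 4457 CPM in the vehicle libraries, so that both treated libraries lay between the untreated ones. Vehicle replicate 1 was above vehicle replicate 2 in 47 of the 48 genes, all but Rfc1, with a median difference of 0.16 on the log2 scale; over all genes tested the share was 49.9%. The size of the vehicle difference exceeded the size of the log2 fold change in 41 of the 48 genes. A difference between single libraries varies more than one between group means, and the share over all genes was not computed. In the 48 genes the median sizes were 0.159 for the vehicle difference and 0.0713 for the log2 fold change. Over all genes tested they were 0.115 and 0.122. Vehicle replicate 1 was the highest library for 32 of the 48, or 66.7%, against 20% of all genes, and vehicle replicate 2 was the lowest for 30, or 62.5%, against 27.4% of all genes. In 17 of the 48, or 35.4%, both GDF10 libraries lay between the vehicle libraries, against 12.1% of all genes tested. Against vehicle replicate 1, GDF10 replicate 1 was lower in 35 genes and GDF10 replicate 2 in 44; against vehicle replicate 2, they were higher in 40 and 32. Without vehicle replicate 1 the median log2 fold change was 0.083, with 10 of 48 negative, and without vehicle replicate 2 it was −0.086, with 39 of 48 negative. These comparisons share libraries and are given side by side, and a cause for the difference between the vehicle libraries was not tested.

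**Figure D4:**
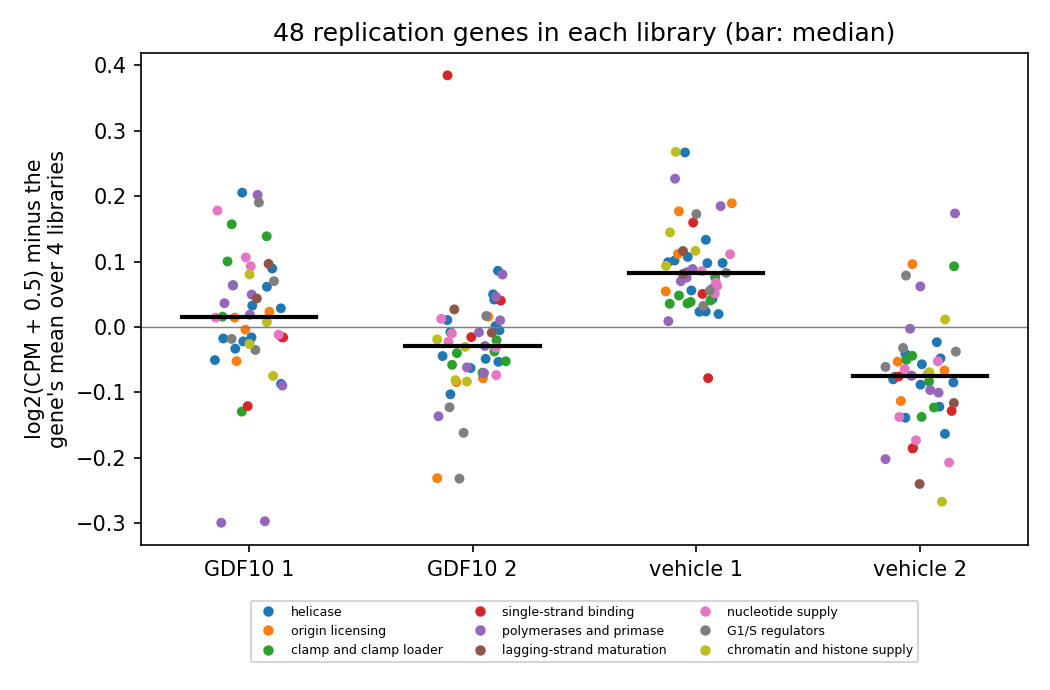
Each point is 1 of the 48 genes in 1 library, as log2(CPM + 0.5) minus that gene's mean over the 4 libraries, coloured by role; black bars are medians. The medians of GDF10 1 and GDF10 2, 0.015 and −0.030, lie between those of vehicle 1 and vehicle 2, 0.082 and −0.075.

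Genes with and without the E2F letters are set side by side as a description. The 15 genes with a match in their window, such as Mcm5, Mcm6, Cdc6 and Pola1 above, had a median log2 fold change of −0.043, and the 25 with a window but no match, such as Pcna, one of −0.014. Vehicle replicate 1 exceeded vehicle replicate 2 by medians of 0.17 and 0.16 on the log2 scale in these 15 and 25 genes.

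The 2 most negative members were among the longest. Pole and Pola1 have 11160 and 8813 bases of annotated exon and Rfc1 has 6021, beside a median of 4045 over the 48 genes, while Orc6, also lower in both GDF10 libraries, has 2469. Across the 48 genes the Spearman correlation of log2 fold change with exon length was −0.30, and across 15431 tested genes with an annotation it was −0.26; genes of 1 library share its depth and composition, and this is a description. The 16 shortest members had a median log2 fold change of 0.031, and the 16 longest one of −0.036. By library, the members' deviations correlated with exon length at −0.36 in GDF10 replicate 1 and 0.035 in GDF10 replicate 2. In vehicle replicates 1 and 2 they did so at 0.33 and 0.17. Over all genes the values were −0.34 and 0.092 in GDF10 replicates 1 and 2, against 0.13 and 0.22 in vehicle replicates 1 and 2. After a trend on exon length was taken out of every library, Pola1 had a log2 fold change of −0.28 and Pole of −0.19. Their unadjusted p-values were 0.0161 and 0.128 in limma's test. With a trend on GC content taken out instead, the log2 fold changes of Pola1 and Pole were −0.27 and −0.30. The unadjusted p-values were then 0.0371 and 0.0626 in limma's test. Other long members lay near 0: Rrm1, with 11012 bases, had a log2 fold change of −0.024, and Chaf1a, with 8854, one of −0.048. Chaf1a shares 4648 of its exon bases with Ubxn6 on the opposite strand. Counts summed over Chaf1a and the genes linked to it by shared exon bases gave a log2 fold change of 0.040. Whether exon length plays a part in the values of Pola1 and Pole was not tested.

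**Figure D5:**
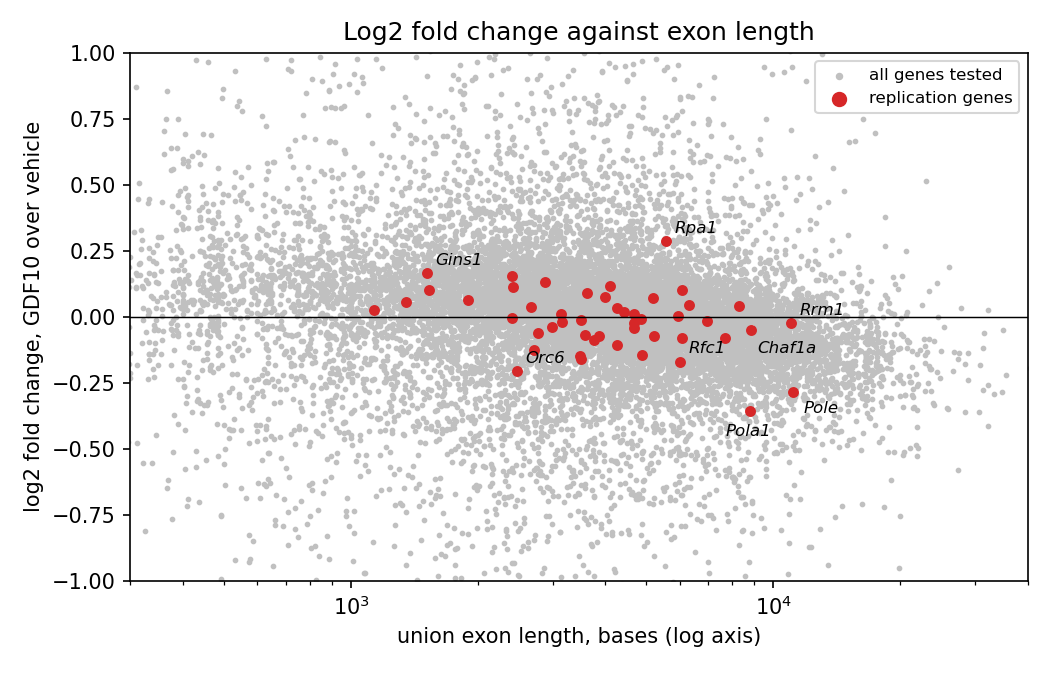
Log2 fold change of GDF10 over vehicle against union exon length (log axis) for the 48 replication genes (red) over all tested genes with an annotation (grey); 513 genes lie outside the plotted range. Pola1 and Pole lie low at the long end, and Rrm1 and Chaf1a, of similar length, lie near 0. Chaf1a shares many of its exon bases with Ubxn6 on the opposite strand.

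Beside the 48, a list of 63 other genes of origin firing, the fork, nucleotide supply, G1/S control and chromatin supply was set by function. All 63 were tested and 0 passed, in edgeR, DESeq2 and limma-voom alike, and at an unadjusted p below 0.05 in edgeR's test 8 were lower and 0 higher, beside 3.49% and 2.44% of all genes. The 8 became 4 with DESeq2, and with 1 library left out they ran from 3, without vehicle replicate 1, to 14, without GDF10 replicate 2. Negative values were found in 49 of the 63, or 77.8%, against 49.2% of all genes tested. The median log2 fold change of the 63 was −0.098. Both GDF10 libraries lay below both vehicle libraries in 28, or 44.4%, against 19.4% of all genes tested. They lay above in 5, or 7.94%, against 18.8% of all genes. Without vehicle replicate 1 the median was −0.034 with 38 of 63 negative, and without vehicle replicate 2 it was −0.14 with 51 negative. Dbf4, which activates the CDC7 kinase that fires origins, had 41.98 and 36.7 CPM with GDF10, against 59.3 and 52.9 CPM with vehicle. Casp8ap2, needed for histone gene expression in S phase, had 17.3 and 20.3 CPM with GDF10, against 26.7 and 28.4 CPM with vehicle, and Atad5, which unloads PCNA, had 21.6 and 21.5 CPM with GDF10, against 29.3 and 27.2 CPM with vehicle. Log2 fold changes of these 3, those of lowest p, were −0.51, −0.55 and −0.39, with adjusted p-values of 0.420, 0.450 and 0.700. These other genes had a longer median exon length of 5481 bases and a lower median GC content of 46.8%, against 49.2% for the 48. With the exon length trend removed their median was −0.055 and 4 were lower at an unadjusted p below 0.05, and with the GC content trend removed it was −0.047 with 3 lower. Whether the 2 lists differ was not tested.

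A list of 38 G2/M genes, given as the nearest cell cycle group, also held 0 genes that passed in edgeR. At an unadjusted p below 0.05, 7 were lower and 2 higher, beside 3.49% and 2.44% of all genes, with a median log2 fold change of −0.022. The sign of that median was not stable. It was 0.073 without vehicle replicate 1 and 0.023 without GDF10 replicate 2. Without vehicle replicate 2 it was −0.12, and without GDF10 replicate 1 it was −0.11. With the GC content trend removed it was 0.010, with 4 lower and 1 higher at an unadjusted p below 0.05 in limma's test. With the exon length trend removed it was −0.020, with 5 lower and 2 higher. Both GDF10 libraries lay below both vehicle libraries in 15 of the 38, or 39.5%, against 19.4% of all genes tested. They lay above in 2, or 5.26%, against 18.8% of all genes. The lowest p belonged to Cenpf, a kinetochore protein gene, at 55.7 and 56.6 CPM with GDF10, against 79.2 and 75.3 CPM with vehicle, Kif20b, a mitotic kinesin gene, at 28.3 and 29.1 CPM with GDF10, against 43.2 and 39.3 CPM with vehicle, and Mki67, the proliferation marker, at 124 and 154 CPM with GDF10, against 194 and 188 CPM with vehicle. Cenpf was called by DESeq2, and Cenpf and Mki67 were called in edgeR without GDF10 replicate 2. Vehicle replicate 1 was above vehicle replicate 2 in 37 of these 38 genes and in 51 of the 63 other replication genes, next to 47 of the 48.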

How the data were processed

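The deposited table held raw counts for each Ensembl gene as whole numbers, with no scaling by the authors. The submitters' processing notes name build mm10 and, with no role given, HISAT2 2.0, Trimmomatic 0.36, FastQC 0.11.2, DESeq2 1.12.4, StringTie 1.3.3b and bedtools 2.26.0. Which tool made the counts, from what annotation and with what strand setting, is not given in the sources used here. Columns headed as controls were matched to the vehicle titles by replicate number. GENCODE M21 gave symbols, mm10 positions and exon lengths for 51633 of 51826 identifiers.

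The test of the counts was edgeR 4.0.16 under R 4.3.3: filterByExpr, TMM scaling, robust dispersions, glmQLFit and glmQLFTest without covariates, and Benjamini-Hochberg adjustment over 15467 genes with a threshold of 0.05. TMM factors were 0.995 to 1.004, and the coefficient of variation between replicates was 14.3%. CPM are counts per 1000000 of library total times TMM factor. Standard errors and 95% intervals were derived from each gene's F statistic. Library deviations used log2(CPM + 0.5). Nothing in the labels says how the replicates were kept apart, so a p-value here speaks of the spread among these libraries, which may be technical. The procedure was tested on simulated data. Alternatives were other scalings, filters and thresholds, DESeq2 1.42.0, voom in limma 3.58.1, dispersions not robust, a replicate block, each library left out, loess trends with exon length or GC content removed, and counts of genes sharing exon bases summed.

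The members, lists and tests were chosen with earlier results of these data known. The genes given in full were those with an unadjusted p below 0.05, the 6 of highest CPM per kb and a fixed set by role; other members are given by range or value. Of the other lists the 3 genes of lowest p are named. Promoters of 6 genes were set for printing. Of these, Ccne1, Rrm2 and E2f1, whose windows held no E2F match, are not shown. Those of Mcm6 and Pola1, which held such matches, were added after the matches were seen. The printed windows therefore do not show how common a match is.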

Additional observations from a re-analysis of the deposited data

How the results depend on the processing

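The count of 0 replication genes called held with each scaling, filter, test, trend removal and threshold tried, and 1, Rpa1, was called without GDF10 replicate 1, a range of 0 to 1 over fits that leave out 1 library. The number at an unadjusted p below 0.05, 1 in the fit reported, was 2 with total counts, 2 with the replicate block, 2 with genes sharing exon bases summed, and 1 to 4 with 1 library left out. The median log2 fold change ran from −0.086 to 0.083 and the log2 ratio of summed CPM from −0.089 to 0.069 with 1 library left out, against −0.011 and −0.012 in the fit reported; both were positive without vehicle replicate 1, and the median was positive, at 0.00016 and 0.0022, with upper quartile scaling and with the exon length trend removed. The 25 calls over all genes became 56 with DESeq2, 11 with limma-voom, 9 without robust dispersions, 9 with the GC content trend removed, 13 with genes sharing exon bases summed, 6 at an adjusted p of 0.01, and 27 to 224 with 1 library left out. G2/M genes called were 1 with DESeq2 and 0 to 2 with 1 library left out; other replication genes called stayed at 0 in the settings tried. Of 768 values of the 48 genes over 16 alternatives, 65 had the other sign, in 33 genes whose unadjusted p in the fit reported was at least 0.335, and 55 moved by more than 1 standard error. The cause of these changes was not tested; fits without 1 library hold a single sample in 1 group, assumed to vary like the other group.

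Deviations of same-numbered libraries correlated at 0.070 over all genes tested and at 0.15 over the 48 replication genes; with 2 pairs and no label for a shared source, the replicate numbers were not taken as pairs. With the replicate block 23 genes were called, against 25 without it. The median half-width of the members' 95% intervals was 0.23 on the log2 scale; an interval that includes 0 does not show that the groups are alike.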
